A study of Mus musculus and blank sample with 768 samples.

Results

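Endothelial cells of mouse tumours were sorted singly by GFP, and the GFP+ cells on plates KM3 and KM4 were set against the GFP- cells on plate KM2, gene by gene across the whole read count table. All 3 plates were gated CD45- CD31+, that is, cells without the leukocyte protein encoded by Ptprc and with the endothelial adhesion protein encoded by Pecam1. A well passed if its genes took 50000 reads or more, if 1000 or more genes were read in it, and if mitochondrial genes held no more than 25% of its reads. On these plates of 96 wells, 84 GFP- cells on KM2 and 84 and 85 GFP+ cells on KM3 and KM4 passed, out of 592 that passed among the 766 wells of the series that held a cell. The labels name the GFP+ cells as endothelial cells of the Csf1r lineage, Csf1r being the receptor gene for the macrophage growth factor CSF1, and the comparison asks how these cells differ from the other endothelium of the same kind of tissue. Strain, age, number of animals, tumour type and the construct that drives GFP are not given in the sources used here. Each plate held 1 gate only, so gate and plate cannot be told apart, and the difference between the 2 GFP+ plates serves as the yardstick for what a plate alone may bring. No label names an animal, so each gate is 1 sample, no difference was tested, and 2-fold on both GFP+ plates is used as a rule of size.

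Endothelial cells line blood and lymphatic vessels and differ in their genes along the vessel tree, with arterial, venous, capillary and lymphatic programs. In tumours, vessel growth is driven largely by VEGF, which acts on receptors that include those encoded by Kdr, Flt1 and Flt4, while capillary endothelium takes up fatty acids and moves water and ions through channels. Lineage tracing marks a cell by a gene that it or a forebear once expressed, so a GFP+ cell need not express Csf1r at the time of the sort.

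Among the genes that differed most, the water channel gene Aqp1, the potassium channel gene Kcnj8 and the fatty acid binding protein gene Fabp4 were higher on both GFP+ plates, each with reads in 29.3% to 35.3% of their cells, and the T-box factor gene Tbx1, the membrane protein gene Itm2a and the TNF receptor family gene Tnfrsf9 were lower. Promoters of 4 genes at the head of either direction are shown so that the sequences can be read beside the values, Aqp1 and Kcnj8 being higher and Tbx1 and Itm2a lower. Each runs from 250 bases before to 50 bases after the RefSeq start on GRCm38.p6, 5′ to 3′ on the strand of the gene, with matches to a GC box (GGGCGG or CCGCCC) in capitals, both strands searched. A CCAAT box (CCAAT or ATTGG) and a TATA box (TATAAA or TTTATA) were searched in the same way. Aqp1 and Itm2a held 1 GC box each, and none of these letters was found in the windows of Kcnj8 and Tbx1.
Aqp1 promoter, chr6:55336049-55336348, GRCm38.p6, plus strand: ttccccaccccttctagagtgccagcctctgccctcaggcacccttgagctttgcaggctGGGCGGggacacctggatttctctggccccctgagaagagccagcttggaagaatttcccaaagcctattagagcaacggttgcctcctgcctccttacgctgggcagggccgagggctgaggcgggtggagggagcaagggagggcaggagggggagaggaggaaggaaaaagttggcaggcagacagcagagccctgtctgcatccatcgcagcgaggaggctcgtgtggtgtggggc
Kcnj8 promoter, chr6:142571565-142571864, GRCm38.p6, minus strand: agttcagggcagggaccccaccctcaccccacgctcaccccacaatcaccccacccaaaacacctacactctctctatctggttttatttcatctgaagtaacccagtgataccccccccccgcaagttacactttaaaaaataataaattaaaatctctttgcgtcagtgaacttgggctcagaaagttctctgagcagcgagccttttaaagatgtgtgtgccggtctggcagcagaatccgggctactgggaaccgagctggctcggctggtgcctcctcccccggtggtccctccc
Tbx1 promoter, chr16:18590622-18590921, GRCm38.p6, minus strand: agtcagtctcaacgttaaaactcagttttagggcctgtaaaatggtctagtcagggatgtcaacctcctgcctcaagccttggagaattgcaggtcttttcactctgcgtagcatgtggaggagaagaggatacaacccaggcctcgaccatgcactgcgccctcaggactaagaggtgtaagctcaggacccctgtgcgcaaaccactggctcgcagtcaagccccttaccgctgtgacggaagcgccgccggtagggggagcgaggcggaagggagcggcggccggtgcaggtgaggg
Itm2a promoter, chrX:107403311-107403610, GRCm38.p6, minus strand: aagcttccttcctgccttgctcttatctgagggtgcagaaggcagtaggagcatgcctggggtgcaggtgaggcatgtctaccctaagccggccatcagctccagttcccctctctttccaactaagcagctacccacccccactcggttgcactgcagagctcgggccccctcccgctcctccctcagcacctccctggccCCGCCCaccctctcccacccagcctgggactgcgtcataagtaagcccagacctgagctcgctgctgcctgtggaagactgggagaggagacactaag

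Among measured genes with a promoter in the RefSeq table (8125 of 11275), 67.4% held a GC box, 39.1% a CCAAT box and 6.55% a TATA box. Among all 27025 promoters of that table the shares were 36%, 37.9% and 14.2%. Genes higher on both GFP+ plates (68% of 444 matched) held them in 68.5%, 35.8% and 6.95%, and genes lower on both (67.7% of 505 matched) in 60.2%, 39.5% and 7.89%. These shares are descriptions of letters in a window. A gene counted as measured if, on any of the 3 plates, its level reached 1 CPM (reads per 1000000 reads in genes, summed over the cells of a plate) and 5% or more of the cells had a read of it.

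Pecam1 and Ptprc followed the gate on all 3 plates. Pecam1 was at 1085 CPM on KM2, 1191 on KM3 and 1154 on KM4, with reads in 82 cells of each plate. Ptprc had 0 reads on each plate, where 3 reads would amount to 0.0388, 0.0407 and 0.0381 CPM, and was at 334.2 CPM in the tumour macrophages of plate KM1. Csf1r was at 0.0129, 1.55 and 1.35 CPM, with reads in 1, 4 and 2 cells, against 1384 CPM in the macrophages. Of 12 pan-endothelial genes 0 were past 2-fold on both GFP+ plates, and 11 were within 2-fold on each, Cldn5 being at -0.78 and -1.03. Of 13 blood endothelial genes 1 was past 2-fold on both. In contrast, Prox1, the transcription factor gene that defines lymphatic endothelium, had reads in 0 cells of KM2, 0 of KM3 and 1 of KM4, and 7 of the 13 lymphatic genes of the list were not measured on these plates.

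Plates had like depth but not like numbers of genes. The median cell had 827490 reads on KM2, 798549 on KM3 and 848441 on KM4, over a range of 58373 to 2672994. It had 3825, 2915.5 and 3171 genes with a read, or 3347, 2516 and 2757 genes when each cell was thinned at random to 100000 reads (82, 82 and 85 cells). The median of the log2 ratios over all measured genes was -0.13 for KM3 against KM2, -0.12 for KM4 against KM2 and -0.02 for KM3 against KM4. The share of thinned cells with a read had median differences of -4.88 and -3.43 percentage points on KM3 and KM4 against KM2. Values below are CPM of summed reads, ratios are on the log2(CPM + 1) scale, which understates the change of low genes, and shares of cells are given after thinning unless raw counts of cells are stated. Counting error alone puts the 95% Poisson bounds of a level of at least 20 CPM within 4.97% of it for the named genes. It covers neither amplification nor the spread between cells.

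Of 11275 measured genes, 2424 were at least 2-fold apart between KM3 and KM2 (21.5%, with 8.27% higher and 13.2% lower on KM3). Between KM4 and KM2 they were 2190 (19.4%, with 8.38% higher and 11% lower on KM4), and between the 2 GFP+ plates 2246 (19.9%, with 8.6% higher and 11.3% lower on KM3). By number alone, a GFP+ plate was therefore about as far from the GFP- plate as from the other GFP+ plate. Asking for both GFP+ plates left 444 genes higher (3.94%) and 505 lower (4.48%), together 8.42% of those measured, and 58 genes were past 2-fold in opposite directions (0.514%). The 2 ratios share plate KM2, so a chance deviation of that plate enters both. For 427 of the 444 and 445 of the 505, the smaller of the 2 ratios was larger in size than the ratio between the GFP+ plates. The latter is the difference of the 2 ratios, so asking for 2-fold on both makes this outcome likely in advance. It is no measure of how far these genes stand above plate effects. With TMM factors in place of total reads the split turned from 444 higher and 505 lower (46.8% higher) to 524 higher and 393 lower (57.1%), since that scaling moved the median of all genes by 0.11 on both ratios.

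How far plates lay apart depended on the level of the gene. At under 5 CPM, 36.5%, 35.4% and 35.2% of 1394 genes were past 2-fold in KM3 against KM2, KM4 against KM2 and KM3 against KM4. At 100 to 500 CPM the shares were 4.2%, 2.48% and 1.86% of 1451 genes, and at 500 CPM or more 3.96%, 3.52% and 0.441%, that is, 9, 8 and 1 genes. At 20 to 100 CPM, where 4789 genes lay, the shares were 14.8%, 12% and 12.7%. Genes under 100 CPM were thus about as unlike between plates of 1 gate as between gates, and the 2 kinds of pair parted only above that level.

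**Figure D1:**
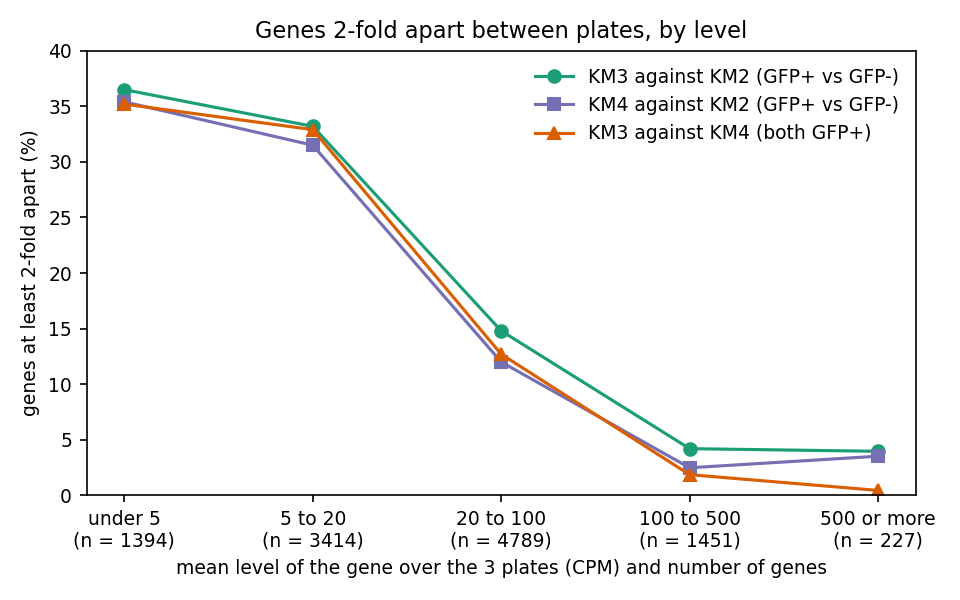
Share of measured genes at least 2-fold apart (y axis, %) for 3 pairs of plates, by mean level of the gene over the 3 plates in CPM (x axis, with the number of genes). The lines lie together below 100 CPM, and at 500 CPM or more the pair of GFP+ plates is at 0.441% against 3.96% and 3.52% for the pairs across gates.

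Among the 1678 genes with a mean of at least 100 CPM, a set formed after the values were seen, 14 were at least 2-fold higher on both GFP+ plates (0.834%) and 8 lower (0.477%). Past 2-fold in single pairs were 70 (4.17%), 44 (2.62%) and, between the GFP+ plates, 28 (1.67%). At a 1.5-fold limit the shares were 19.5%, 18.2% and 10.5%. The higher genes included Kcnj8, Cd300lg, Thbs1, Hist1h2ap, Zeb1, Ramp3, Gpihbp1, Ptgr1, Olfml2a, Flt4 and 3 genes often linked to RNA quality or nuclear RNA (Malat1, mt-Rnr1, Lars2), beside 1 gene with a predicted name. The lower ones were Cebpd, Tgfbi, Ier3, Copb2, Arrdc3, Tnfrsf9, Scgb3a1 and Ccl21a. Of these, Ccl21a, a chemokine gene, rested on 8, 1 and 3 cells, and Hist1h2ap, a histone gene of dividing cells, on 9, 11 and 16 cells. With every cell weighed the same, Lars2, Thbs1, Olfml2a, Cebpd and Tgfbi were short of 2-fold on at least 1 plate, and in cells with 2500 to 4500 genes Cd300lg, Zeb1, Gpihbp1, Malat1, Flt4 and Tgfbi were. With TMM factors Cebpd, Tgfbi and Ier3 were.

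A stricter rule singled out genes for naming. It asked for the 2-fold ratio also by the mean over cells, for 20 CPM or more and a read in 25% or more of the cells on each plate of the higher gate, for no cell with over 20% of those reads, for the smaller ratio to exceed that between the GFP+ plates, and for a thinned share on the same side. It left 30 genes higher (0.266%) and 57 lower (0.506%), from which the 12 with the largest smaller ratio are described in each direction. All 24 kept their direction and stayed past 2-fold under each other setting but 1. Part of this was set in advance. Filters on genes leave a single ratio as it is, and the rule already asked for 2-fold by the mean over cells. Its limit on leading cells also bounded what setting aside the highest cell could change. In cells with 2500 to 4500 genes, an alternative chosen after the data were seen, Cd300lg and Robo1 no longer passed.

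**Figure D2:**
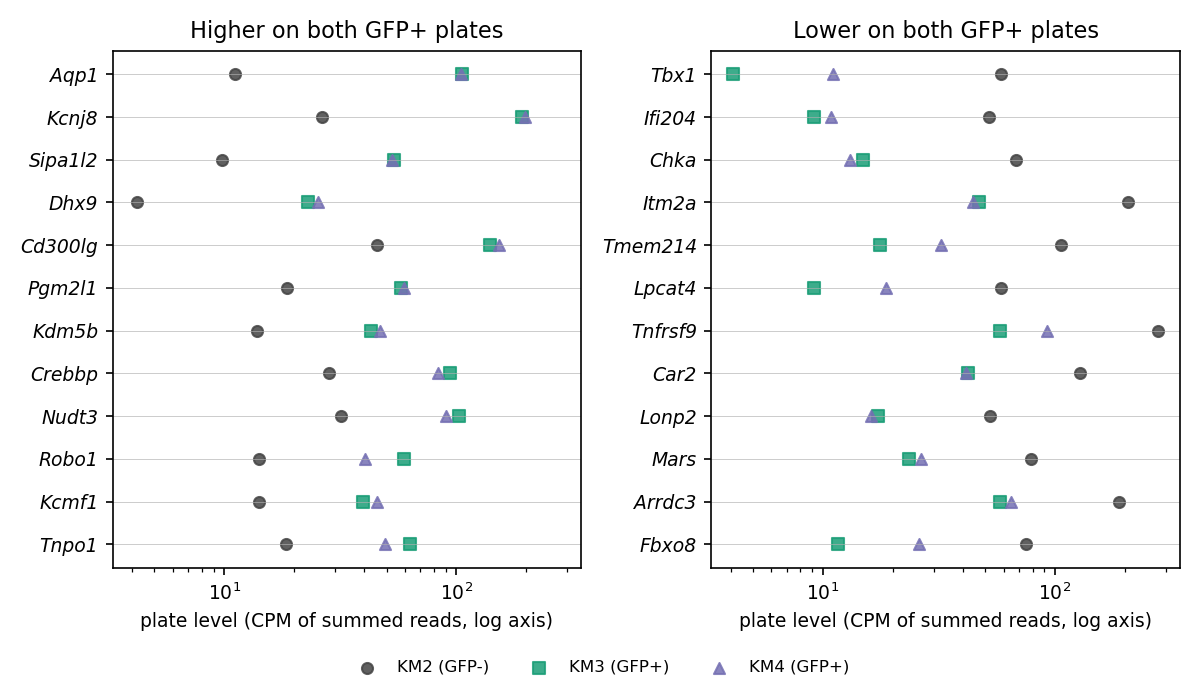
Plate levels in CPM (log axis) of the 12 named genes higher on both GFP+ plates (left) and the 12 lower (right), 1 point per plate. For Aqp1 the GFP+ plates lie at 106.1 and 104.6 CPM against 11.2 on the GFP- plate, and for Tbx1 at 4.09 and 11.1 against 58.7.

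Channels led the higher genes. Aqp1 (chromosome 6, 55336432 to 55348555, plus strand, GENCODE vM21 on GRCm38), whose product passes water through capillary endothelium, was at 11.2 CPM on KM2 (10.4 to 11.9), 106.1 on KM3 (103.8 to 108.5) and 104.6 on KM4 (102.3 to 106.9). The 2 GFP+ plates did not differ beyond counting error, and the log2 ratios were 3.14 and 3.12. Reads were found in 5 of 82, 26 of 82 and 25 of 85 thinned cells, that is, 6.1% (2.01 to 13.7), 31.7% (21.9 to 42.9) and 29.4% (20.02 to 40.3). Positive cells had median levels of 170.2, 283.98 and 328.1 CPM, so the gates differed more in how many cells had reads than in the level of those cells.

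Kcnj8 (chromosome 6, 142564837 to 142571614, minus strand), an inward rectifier subunit of ATP-sensitive potassium channels, was at 26.2, 192.2 and 198.1 CPM on KM2, KM3 and KM4. Both GFP+ plates were far above the GFP- plate and close to each other, with ratios of 2.83 and 2.87 and -0.04 between them. The share of cells was 12.2% (6.01 to 21.3), 29.3% (19.7 to 40.4) and 35.3% (25.2 to 46.4). In cells with 2500 to 4500 genes the ratios were 2.24 and 2.08.

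Fabp4 (chromosome 3, 10204088 to 10208576, minus strand), the fatty acid binding protein of capillaries and fat cells, was left out of the ranking by the limit on leading cells, since 1 cell held 24.8% of its reads on KM3. It led the genes ranked by share of cells, with 6.1% (2.01 to 13.7) on KM2, 31.7% (21.9 to 42.9) on KM3 and 32.9% (23.1 to 44) on KM4. Its levels were 3.76, 145.3 and 111.9 CPM.

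Cells with reads of Fabp4, Aqp1 and Kcnj8 coincided in part. At least 1 of the 3 genes was read in 16 of 82 thinned cells on KM2, 45 of 82 on KM3 and 42 of 85 on KM4. At least 2 of them were read in 4, 25 and 28 cells, that is, 4.88% (1.34 to 12.02), 30.5% (20.8 to 41.6) and 32.9% (23.1 to 44), and all 3 in 0, 6 and 13. Among the thinned GFP+ cells, Aqp1 was read in 64.8% of the 54 with Fabp4 and in 14.2% of those without it. Kcnj8 was read in 57.4% and 20.4% of the same cells. On each GFP+ plate about as many thinned cells had no read of the 3 genes as had any. Having no read at this depth does not show that a gene is silent. Neither this split nor the co-detection was set against the gene number of the cells.

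**Figure D3:**
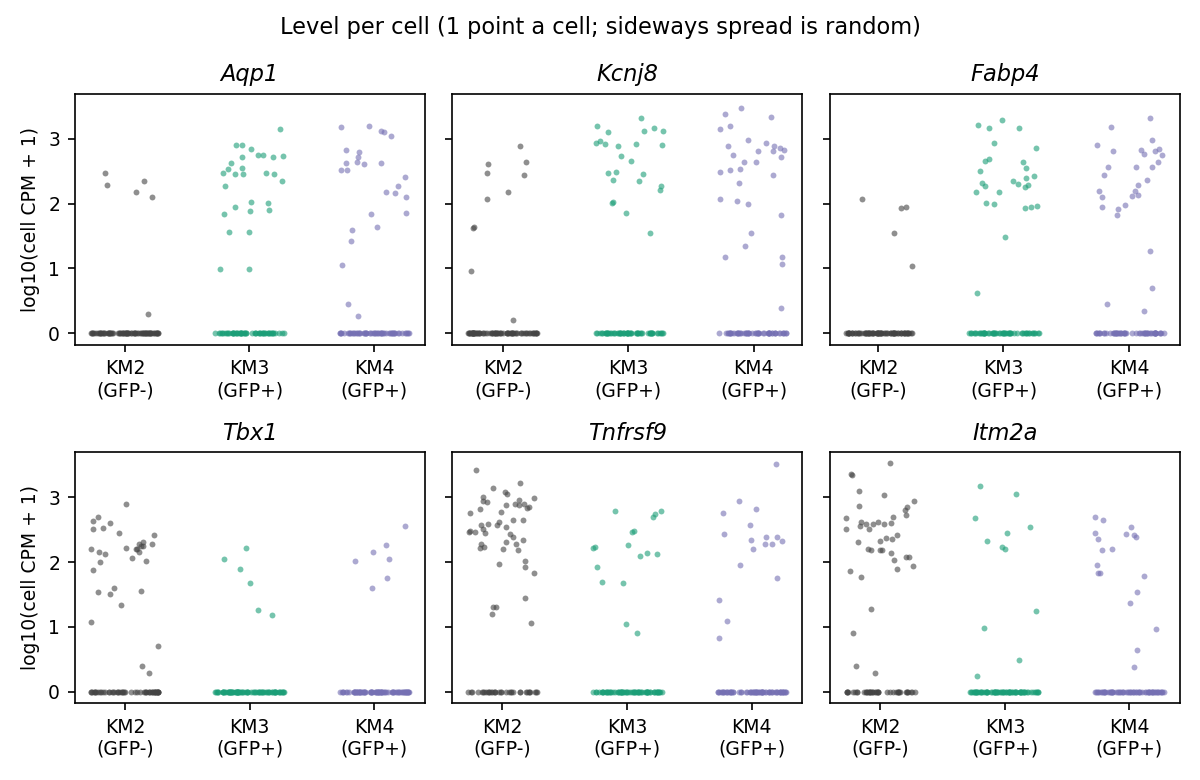
Level per cell as log10 of CPM plus 1 for 6 genes, 1 point per cell, for the GFP- plate KM2 and the GFP+ plates KM3 and KM4; sideways spread is random. Aqp1, Kcnj8 and Fabp4 have reads in 6, 11 and 5 cells of KM2 and in 25 to 32 cells of each GFP+ plate, while most cells of every plate lie at 0 for them.

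Of the other higher genes by share, Ptgr1, which encodes a prostaglandin and leukotriene reductase, was at 229.1, 752.5 and 487.2 CPM with reads in 45.1%, 70.7% and 62.4% of cells. Itga9, an integrin subunit gene known from lymphatic valves, was at 18.9, 64.8 and 35.2 CPM with reads in 6.1%, 26.8% and 24.7%. Tacr1, the substance P receptor gene, was at 34.7, 114.2 and 66.9 CPM with 19.5%, 35.4% and 37.6%. For all 3 the GFP+ plates lay above the GFP- plate, but KM3 stood above KM4 by 0.63, 0.86 and 0.76 on the log2 scale, and the KM4 ratios of Itga9 and Tacr1 (0.86 and 0.93) were short of 2-fold.

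Cd300lg, an endothelial mucin-like receptor gene of capillaries and venules, was at 45.5 CPM on KM2, 139.9 on KM3 and 151.8 on KM4, with ratios of 1.60 and 1.72. In cells with 2500 to 4500 genes the ratios were 0.88 and 1.14. Robo1, a guidance receptor gene that binds Slit ligands, was at 14.1, 59.4 and 40.3 CPM. In that range of gene number, where the median cell still had 3668 genes on KM2, 3164 on KM3 and 3313 on KM4, its ratio on KM4 went from 1.46 to -0.0235, while that on KM3 was 2.22, so its difference from the GFP- plate on KM4 rests on cells outside that range.

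The other 8 named higher genes were of general function. They included the RNA helicase gene Dhx9 (4.19, 23 and 25.5 CPM on KM2, KM3 and KM4), the histone demethylase gene Kdm5b (13.8, 43 and 47), the coactivator gene Crebbp (28.3, 93.7 and 83.5) and the nuclear import receptor gene Tnpo1 (18.4, 63.2 and 49.1). Sipa1l2 was at 9.73, 53.7 and 52.9 CPM, Pgm2l1 at 18.6, 57.9 and 59.3, Nudt3 at 31.8, 102.8 and 90.5, and Kcmf1, a ubiquitin ligase gene, at 14.1, 39.4 and 45.4. In each the GFP+ plates were within 0.36 of each other on the log2 scale. For all 12 higher genes, Aqp1 and Kcnj8 included, the naming rule and the ranking favoured genes with like GFP+ plates. Their closeness was thus in part set in advance. A thinned cell had reads of a median of 2 of the 12 higher genes on KM2, 4 on KM3 and 4 on KM4. The rule asked each gene for a higher share of thinned cells on both GFP+ plates, so this direction was largely set in advance.

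Tbx1 led the lower genes. It lies on chromosome 16, 18580979 to 18590671, on the minus strand, and encodes a T-box factor with a part in lymphatic and heart development. Its level was 58.7 CPM on KM2 (57 to 60.4), 4.09 on KM3 (3.64 to 4.58) and 11.1 on KM4 (10.4 to 11.9). Reads were found in 36.6% (26.2 to 48), 6.1% (2.01 to 13.7) and 8.24% (3.38 to 16.2) of cells. GFP+ plates were both lower, by log2 ratios of -3.55 and -2.30, and also 1.25 apart from each other.

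Itm2a (chromosome X, 107397099 to 107403376, minus strand), an integral membrane protein gene, was at 205.6, 47.1 and 44.5 CPM with reads in 48.8% (37.6 to 60.1), 12.2% (6.01 to 21.3) and 21.2% (13.1 to 31.4) of cells. Tnfrsf9 (chromosome 4, 150914562 to 150946102, plus strand), which encodes the costimulatory receptor 4-1BB, was at 279.03 CPM on KM2, 57.8 on KM3 and 91.9 on KM4. It was read in 58.5% (47.1 to 69.3), 19.5% (11.6 to 29.7) and 17.6% (10.2 to 27.4) of cells. By the smaller of the differences on KM3 and KM4, it had the largest difference in share among the lower genes. The T and B cell list summed to 0, 0.0815 and 0.152 CPM on KM2, KM3 and KM4, with Cd3e, Cd3d and Trac at 0 on each.

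Among the remaining named lower genes, Ifi204, an interferon-inducible DNA sensor gene, was at 52.1, 9.17 and 10.9 CPM. Car2, a carbonic anhydrase gene, was at 127.6, 42.1 and 41.6 CPM, and Arrdc3, an arrestin family gene, at 189.3, 58.1 and 64.7. Chka, the choline kinase gene, was at 68.1, 14.9 and 13.1 CPM, and Lpcat4, which acts on lysophospholipids, at 58.3, 9.17 and 18.6. Mars, the methionyl-tRNA synthetase gene, was at 78.8, 23.4 and 26.4 CPM, and Lonp2, a peroxisomal protease gene, at 52.4, 17.2 and 16.1. Tmem214 (105.7, 17.7 and 32.4 CPM) and Fbxo8 (75, 11.6 and 25.9 CPM) were lower with KM3 below KM4. A thinned cell had reads of a median of 5 of the 12 lower genes on KM2, 1 on KM3 and 2 on KM4. The rule asked each gene for a lower share of thinned cells on both GFP+ plates, so this direction too was largely set in advance.

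By share of cells, the lower genes after Tnfrsf9 were Dusp2, Copb2, Nabp2, Alas1 and Manf. Dusp2, a phosphatase gene that curbs MAP kinases, had reads in 74.4%, 28% and 40% of cells, with 220.6, 93.2 and 115.3 CPM. Copb2, a coatomer subunit gene, had reads in 72%, 35.4% and 37.6%, with 220.9, 99.3 and 100.1 CPM. Nabp2 went from 64.6% to 30.5% and 29.4%, and Alas1, the first enzyme of haem synthesis, from 58.5% to 24.4% and 25.9%. Manf, an endoplasmic reticulum stress gene, shows that share and level can part: its share was 85.4%, 48.8% and 52.9%, while its level was 174.4, 179.3 and 102.2 CPM, a ratio of 0.04 on KM3. Genes with a mean of at least 20 CPM had lower shares on the GFP+ plates in general, with median differences of -8.54 and -5.87 points, so a lower share alone says less than a lower level.

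The yardstick pair had differences of like size under looser limits. Its genes met the limits on level, share of cells and leading cell on the higher plate only. The mean over cells and the thinned share were not asked of them. Acsf2, a fatty acid CoA ligase gene, was at 1.17 CPM on KM3 and 20.7 on KM4, both GFP+, a log2 ratio of -3.32, with 11.9 on KM2. Psip1 was at 5.60 and 52.7 CPM (-3.03), and Abhd17c, Mxra7 and Npepl1 followed with ratios of -2.61, -2.48 and -2.44. In the other direction Arfgef1, Chd8, Cxxc5, Chm and Zfp260 were higher on KM3 by 1.84, 1.80, 1.79, 1.74 and 1.65. Of the 24 ranked genes, Aqp1 and Kcnj8 alone had a smaller ratio across gates above 2.44 in size. That value is a ratio of 1 pair under looser limits, so the 2 measures are not alike.

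Gene lists placed the single genes in their programs. Over all measured genes, 3.94% were at least 2-fold higher on both GFP+ plates and 4.48% lower, and the counts of each list that follow stand beside these shares. Of 9 measured genes of the water and potassium channel list, 5 were higher and 0 lower, with median ratios of 1.16 and 1.08 and -0.05 between the GFP+ plates. Beside Aqp1 and Kcnj8 these were Kcnn3, a calcium-activated potassium channel gene, Slc6a6, a taurine carrier gene, and Trpv4, a cation channel gene. Slc6a6 and Trpv4 are neither water nor potassium channel genes, so the list is wider than its name. Kcnn3 was at 0.233, 18.2 and 19.01 CPM but in only 2, 6 and 6 cells, with 73.3% of the KM4 reads in 1 cell. Slc6a6 was at 21.3, 152.2 and 62.97 CPM. The list was drawn up with results of these cells known, so its direction is a description of its members.

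**Figure D4:**
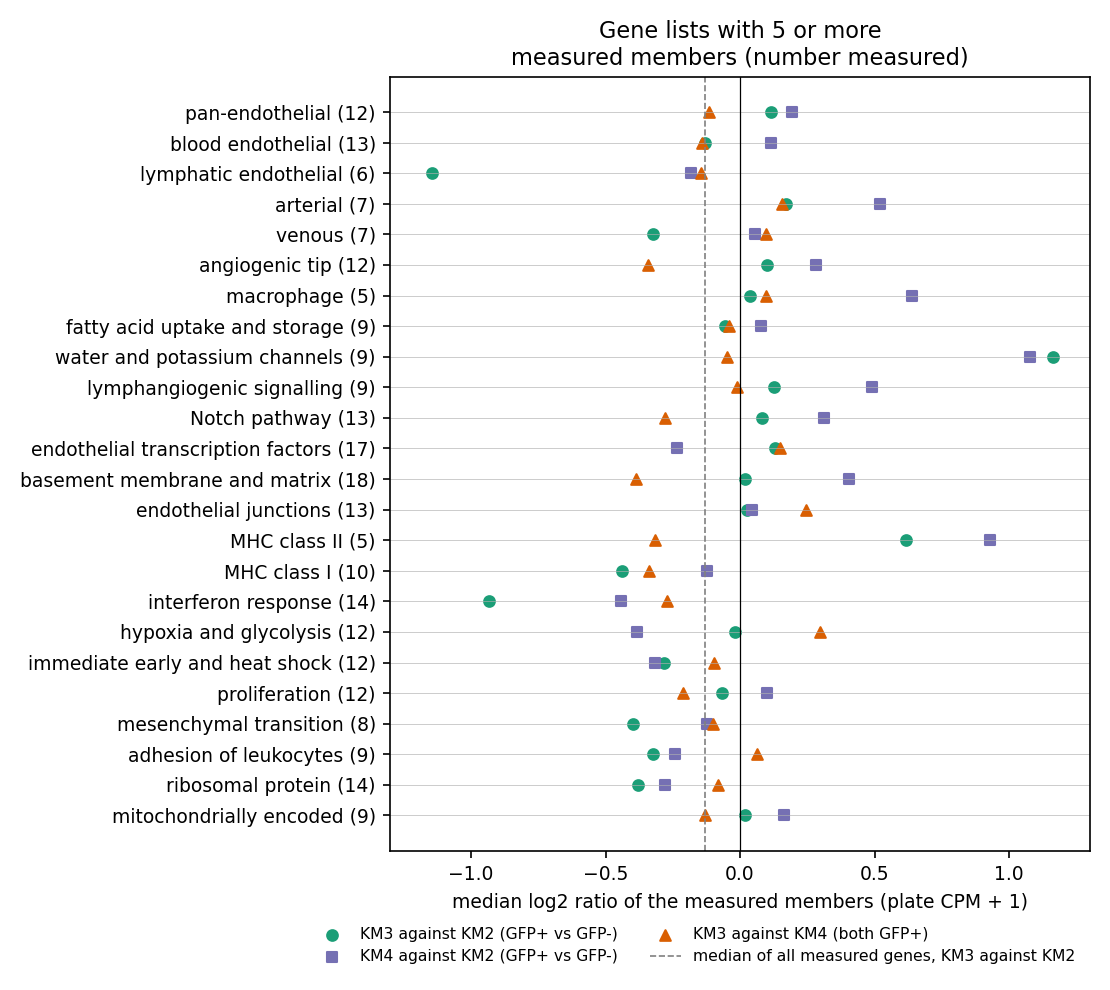
Median log2 ratio (x axis) over the measured members of each gene list with at least 5 of them, for KM3 against KM2, KM4 against KM2 and KM3 against KM4; the dashed line is the median of all measured genes for KM3 against KM2, -0.13. Water and potassium channels lie at 1.16 and 1.08 across gates and at -0.05 between the GFP+ plates, while most lists lie within 0.5 of 0 in all 3 pairs. That list also holds a taurine carrier and a cation channel gene and was drawn up with results of these cells known.

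Capillary and fatty acid genes differed in a few members only. Of 3 measured capillary genes 2 were higher, Fabp4 and Gpihbp1, the latter encoding the protein that carries lipoprotein lipase to the capillary lumen. Gpihbp1 was at 299.1, 755 and 642 CPM with reads in 56.1%, 68.3% and 76.5% of cells, and its KM4 ratio was 0.75 in cells with 2500 to 4500 genes. The same 2 were the only ones past 2-fold on both plates among the 9 measured genes of fatty acid uptake and storage, whose medians were -0.05 and 0.08. Pparg, the fat cell regulator gene, was at 11.4, 6.68 and 8.58 CPM, and Mgll, a monoglyceride lipase gene, at 46.6, 57.9 and 59.6.

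Among lymphangiogenic signals, a receptor gene and the gene of its ligand were each higher on both GFP+ plates. Flt4, the gene of VEGFR-3, was at 133.2, 272.7 and 311.03 CPM (ratios 1.03 and 1.22) and was read in 85.4%, 79.3% and 83.5% of thinned cells: its level differed while its shares lay close together. Vegfc, the ligand gene of that receptor, was at 20.2, 69.1 and 50.2 CPM with reads in 12.2%, 24.4% and 20%. These were the 2 of 9 measured lymphangiogenic signalling genes past 2-fold on both plates. Neither was in cells with 2500 to 4500 genes, with ratios of 0.77 and 0.68 for Flt4 and 0.77 for Vegfc on KM4. With a stricter filter on cells the KM3 ratio of Flt4 was 0.97. Nrp2, a co-receptor gene, was at 83.8, 142.1 and 143.2 CPM (0.75 and 0.77). All 12 angiogenic tip genes stayed short of 2-fold on at least 1 plate, among them Esm1 at 59.6, 82.2 and 215.6 CPM and Pgf at 31.6, 144.3 and 45.4 CPM, each high on 1 GFP+ plate only.

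Lymphatic genes did not go 1 way. Of 6 measured, Flt4 and Maf were higher and Ccl21a, Tbx1 and Lyve1 lower, with medians of -1.15 and -0.18. With at least 10 CPM and 20% of cells asked for, the KM3 median turned to 0.89, and without a filter to 0.29, so it carries no direction. Maf, a transcription factor gene that macrophages also express (142.5 CPM on KM1), was at 0.0388, 12.5 and 13.5 CPM with reads in 1, 20 and 12 cells. Lyve1, whose product binds hyaluronan, had 49.96, 5.18 and 22.3 CPM with reads in 13, 9 and 9 cells, and its KM4 ratio was -0.65 in cells with 2500 to 4500 genes. Summed over all 13 genes, the list stood at 632.3, 479.5 and 530.8 CPM.

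Few arterial, venous and transcription factor genes were past 2-fold on both plates. Sox17, a SoxF factor gene of arterial and blood endothelium, was at 160.1, 68.9 and 58.3 CPM with reads in 56.1%, 19.5% and 31.8% of cells. It was the only 1 of 13 blood endothelial and of 7 arterial genes past 2-fold on both plates, and 0 of 7 venous genes were. Among 17 endothelial transcription factor genes, Maf was higher and Sox17 and Tbx1 lower. Of 13 Notch pathway genes, Maml1, a coactivator gene, was higher at 9.93, 25.4 and 54.6 CPM (0.93 on KM3 with every cell weighed the same), while Notch1 was at 147.2, 173.1 and 266.1 CPM. Of 13 junction genes, Ocln, the occludin gene, was lower at 64.2, 16.6 and 30.2 CPM (-0.94 on KM4 with TMM factors). Cldn5, a tight junction gene, was at 3445, 2005 and 1690 CPM, ratios of -0.78 and -1.03.

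Matrix, mesenchymal and proliferation lists held few such genes. None of 18 basement membrane and matrix genes passed on both plates, and Hspg2, the perlecan gene, was at 197.5, 274.9 and 468.9 CPM. Of 8 measured mesenchymal transition genes, Zeb1 (68.5, 155.4 and 154.3 CPM) and Tgfb2 (6.31, 24.3 and 31.1 CPM) were higher, while Snai1 was at 70.8, 48.5 and 31.2 CPM, so the list had medians of -0.40 and -0.12. Of 12 proliferation genes, Mki67 (37.3, 81.9 and 105.6 CPM) and Bub1 (7.29, 21.7 and 17.2 CPM) were higher. Both rested on few cells, Mki67 having reads in 9.76%, 13.4% and 17.6%, and other settings took Mki67 and Bub1 below 2-fold on at least 1 plate, as they did Zeb1 and Tgfb2. Mcm5, a replication helicase gene, was at 96.8, 44.2 and 54.02 CPM.

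Immune and stress lists had few genes past 2-fold. Of 14 interferon response genes 2 were lower on both plates, Ifit1 (21.3, 1.53 and 6.08 CPM) and Ifi204, and 0 higher, with medians of -0.93 and -0.44 against -0.13 and -0.12 over all genes and -0.27 between the GFP+ plates. MHC class I genes had medians of -0.44 and -0.12, with 0 of 10 past 2-fold on both plates. H2-K1 was at 2029, 1196 and 1460 CPM. Of 5 measured MHC class II genes 1 was higher, H2-Eb1, at 4.95, 29.8 and 18.4 CPM, and the medians were 0.62 and 0.93. Macrophages on KM1 had 2025 CPM of it, and the 16 macrophage genes summed to 33.9, 55.4 and 64.8 CPM on KM2, KM3 and KM4 against 47164 on KM1. Their part in the class II values was not tested.

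Among 5 measured macrophage genes, Fcer1g was higher (0.0775, 9.75 and 23.6 CPM) and Ctss lower (6.04, 0.0951 and 0.0254 CPM), each from at most 8 cells a plate, and the list had medians of 0.04 and 0.64. Adgre1 was at 0 on KM2 and KM4, and Tyrobp on KM3 and KM4. The 4 measured pan-leukocyte genes had 0 higher and 1 lower, Cd53, at 16.6, 0 and 2.95 CPM, and medians of -0.93 and -0.14. Of the 9 erythroid and platelet genes 2 were measured, with medians of -1.76 and -0.01. None of the T and B cell, fibroblast and pericyte, or epithelial and melanocyte genes was measured, and no such list summed to more than 6.85 CPM on any of the 3 plates. Venous genes had medians of -0.32 and 0.05, blood endothelial genes -0.13 and 0.11, arterial genes 0.17 and 0.52, and pan-endothelial genes 0.11 and 0.19.

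Of 12 hypoxia and glycolysis genes 0 passed on both plates. Slc2a1, the glucose carrier GLUT1, was at 1008 CPM on KM2, 549.1 on KM3 and 438.2 on KM4, ratios of -0.88 and -1.20, and Ldha, the lactate dehydrogenase gene, at 1231, 740.5 and 686.1 CPM. The medians were -0.02 and -0.38. Of 12 immediate early and heat shock genes, Hsph1 was higher (4.81, 20.4 and 22.1 CPM), while Fos, an early response factor gene that cell dissociation induces, was at 697.9, 262.6 and 361.9 CPM, and the medians were -0.28 and -0.32. The 9 measured genes of leukocyte adhesion had medians of -0.32 and -0.24 with none past 2-fold on both plates. For Ackr1, a venular chemokine receptor gene at 94.4, 64.2 and 38.2 CPM, the ratio on KM4 turned from -1.28 to 0.15 when every cell weighed the same.

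Most of the remaining lists had medians between -0.23 and 0.49. They were 0.10 and 0.28 for angiogenic tip genes, 0.13 and 0.49 for lymphangiogenic signalling, 0.08 and 0.31 for the Notch pathway, 0.13 and -0.23 for endothelial transcription factors, 0.02 and 0.40 for matrix, 0.02 and 0.04 for junctions, -0.07 and 0.10 for proliferation and 0.02 and 0.16 for the 9 mitochondrially encoded genes. The 3 capillary genes had 1.33 and 1.10. Xist, which female cells express, was at 292.5, 358.1 and 513.2 CPM and was the 1 measured gene of the 5 sex chromosome genes, the other 4 being Y-linked.

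The length of a gene went with its ratio. In protein-coding genes ordered by exonic length and split into 5 equal groups, a split made after the values were seen, the median ratio of KM3 against KM2 was -0.22, -0.22, -0.20, -0.05 and 0.09 from short to long. For KM4 against KM2 it was -0.23, -0.21, -0.15, -0.05 and 0.13, and between the GFP+ plates it stayed between -0.03 and 0.02. Genes higher on both plates made up 2.11% of the shortest group and 6.62% of the longest, and genes lower on both 4.62% and 2.91%. Median exonic length was 4601 bases over measured genes, 6262 over those higher and 4193.5 over those lower. The ordering was still there in cells with 2500 to 4500 genes, from -0.21 to 0.09 on KM3 and from -0.18 to 0.09 on KM4.

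**Figure D5:**
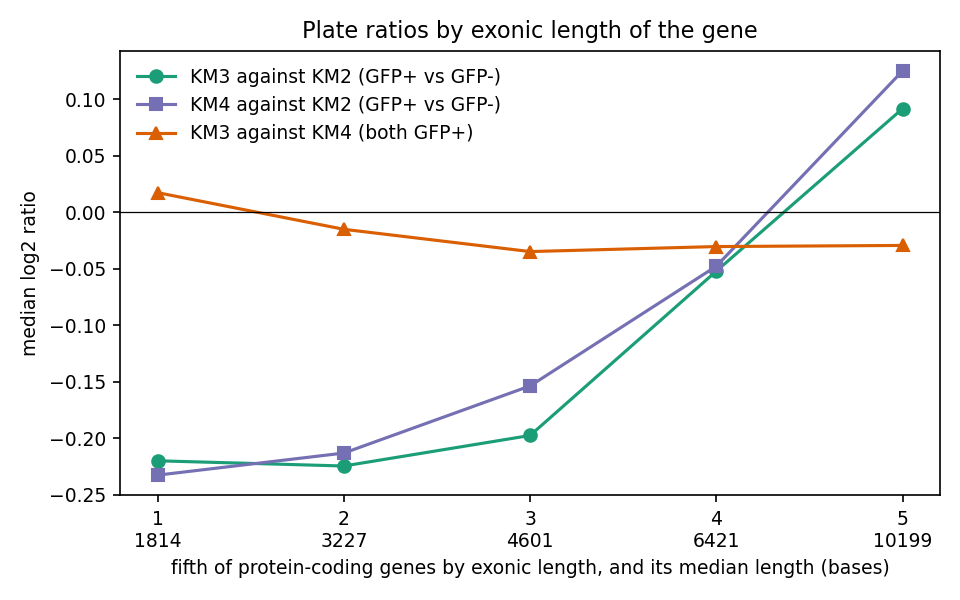
Median log2 ratio (y axis) of protein-coding genes in 5 groups by exonic length (x axis, with the median length in bases) for 3 pairs of plates. Both pairs across gates go from -0.22 and -0.23 in the shortest genes to 0.09 and 0.13 in the longest, and the pair of GFP+ plates stays between -0.03 and 0.02.

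Other measures of the libraries lay on the same side. The shortest group of genes held a median of 24.8% of the reads of a KM2 cell, 21.3% of a KM3 cell and 21.3% of a KM4 cell. The 88 ribosomal protein genes in the table held 4.63%, 3.53% and 3.96%, and the 14 of the ribosomal list had median ratios of -0.38 and -0.28, with 0 past 2-fold. Malat1, a long noncoding RNA kept in the nucleus, was at 1436, 3934 and 3188 CPM, and in cells with 2500 to 4500 genes at 1564, 3798 and 3116. The mitochondrial 12S ribosomal RNA gene mt-Rnr1 was at 512.2, 1704 and 1465 CPM, mt-Rnr2 at 8583, 11389 and 14431, and Lars2, whose rows can take reads of mitochondrial ribosomal RNA, at 383.01, 800.5 and 1135. With every cell weighed the same, the ratios of Lars2 fell from 1.06 and 1.56 to 0.09 and 0.72, short of 2-fold. Of other nuclear RNAs, Neat1 and Kcnq1ot1 each changed sign on 1 plate in cells with 2500 to 4500 genes, and Xist on neither. The ratios of Xist went from 0.29 and 0.81 to 0.22 and 0.83 in those cells. Neat1 was at 78 CPM on KM2, 82.5 on KM3 and 89.9 on KM4. Its ratio on KM3 went from 0.08 to -0.67 there, and that on KM4 from 0.20 to 0.03. Kcnq1ot1 was at 31.2, 66.2 and 45.3 CPM, and its ratios went from 1.06 and 0.53 to 0.51 and -0.08. These genes were picked after their values were seen. The part of length, gene number and nuclear RNA in the differences named above was not tested.

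Lymph node endothelium was also sorted by GFP, but its GFP+ and GFP- cells differed in endothelial genes. Over the 3 pools together, Pecam1 was at 622.4 CPM in GFP+ against 1902 in GFP- cells. Gpihbp1 was at 0.021 against 198.5 and Ccl21a at 0.021 against 4662, while Flt4 was higher, at 182.8 against 88.7. Whether these gates hold unlike kinds of vessel was not tested, so the 2 tissues may not compare like cells. In pools A, B and C, 98 GFP+ and 74 GFP- cells passed the filter (43, 33 and 22 against 40, 26 and 8). Of 9863 genes measured in both tissues, 16.5% were at least 2-fold higher and 18.7% lower in lymph node GFP+ cells over the 3 pools together. Of the genes higher on both tumour plates and measured there as well, 86 were higher there too (25.8%) and 74 lower (22.2%). Of 370 genes lower in the tumour, 86 were lower (23.2%) and 98 higher (26.5%). Of the 29 genes that met the naming rule in the higher direction and were measured there, 27.6% were higher and 24.1% lower, and of the 53 in the lower direction 15.1% were higher and 32.1% lower. For the genes past 2-fold on both tumour plates, both directions were about equally frequent, and the shared genes were 5.27% of the 1631 higher and 4.67% of the 1840 lower lymph node genes.

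Single genes parted between the tissues. Kcnj8 was higher in GFP+ cells of all 3 pools, at 64.2 against 0 CPM in pool A, 134.01 against 24.4 in pool B and 13.8 against 0 in pool C. Dhx9 was higher too, at 26.7 against 12.4, 32.8 against 13.9 and 26 against 0.216 CPM. Aqp1 went the other way, at 0.0478, 0 and 0 CPM in GFP+ cells against 993.4, 360 and 2664 in GFP- cells. Fabp4 was at 0.0239, 0 and 0 CPM against 274.8, 476.4 and 343.5, and Cd300lg at 18.3, 0 and 0.183 against 869.6, 687.6 and 433.8. Among the 12 lower genes of the tumour, Tnfrsf9 was lower in all 3 pools, at 0 CPM in the GFP+ cells of each against 22.2, 13.5 and 72.7. The difference between the tissues was not tested, and pool C held only 8 GFP- cells.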

How the data were processed

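Single cells were sorted into 96-well plates, amplified with a modified SMART-seq2 protocol over 20 cycles and made into libraries with Nextera XT, per the labels' protocols. No molecular identifiers were used, so intervals and floors of levels cover counting error of reads only, and those of shares the sampling of cells. The authors deposited a table of whole-number read counts for each gene, not normalized. The submitters' processing notes name the build mm10 and, as tools, Subread 1.4.6-p2, STAR 2.4.1b and FastQC 0.11.4. Counting and strand settings are not given in the sources used here, so genes that overlap or have near-identical copies may share reads.

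The table had 51826 rows, of which 92 shared a symbol and were summed, and 0 columns lacked a sample. Groups follow the gate, tissue and plate of the labels. Since animals are not named there, cells were not used as replicates and no p-value is given. Counts were summed per plate and scaled to CPM with exact Poisson 95% bounds. Shares of cells have exact Clopper-Pearson 95% bounds and were taken after thinning each cell to 100000 reads (2 cells of KM2 and 2 of KM3 were too shallow). Ratios are log2(CPM + 1). No doublet caller was run, since cells were sorted singly. Steps were checked on simulated counts. Python 3.11.15, pandas 2.3.3 and scipy 1.17.1 were used, and edgeR 4.0.16 (R 4.3.3) gave TMM factors only. Gene positions and exonic lengths are from GENCODE vM21, and promoters from RefSeq on GRCm38.p6.

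The members, the 31 gene lists, the rule for naming genes and the alternatives were chosen with earlier results of these data known. The rule is given with the named genes. It also took the 6 genes in each direction with the largest difference in share, by the smaller of the differences on KM3 and KM4. Added to these were the 5 in each direction with the largest ratio between the GFP+ plates, up to 4 members of each list, and Pecam1, Ptprc and Csf1r. Genes with predicted names, ribosomal protein and mitochondrial genes and pseudogenes were counted and not named, apart from genes read as signs of RNA quality. Genes named otherwise were chosen after their values were seen. Alternatives were other pseudocounts, filters on genes and cells, a mean over cells, thinning, each gene's highest cell set aside, 2 other scalings, either GFP+ plate alone and, added after the data were seen, cells with 2500 to 4500 genes and cells low in pan-endothelial genes left out.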

Additional observations from a re-analysis of the deposited data

Results flagged for a closer look

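Aqp1, Fabp4 and Cd300lg were picked out because both tumour GFP+ plates lay above the tumour GFP- plate by at least 2-fold while GFP+ cells of all 3 lymph node pools lay below the GFP- cells of their pool by at least 2-fold. The smaller of the 2 tumour ratios was 3.12 for Aqp1, 4.57 for Fabp4 and 1.60 for Cd300lg on the log2 scale. In the lymph node these genes had at most 0.0478, 0.0239 and 18.3 CPM in the GFP+ cells of any pool and at least 360, 274.8 and 433.8 CPM in the GFP- cells. The difference between the tissues was not tested. The lymph node gates also differed in other endothelial genes, Pecam1 among them, so the tissues may not compare like cells. Pool C rests on 22 GFP+ and 8 GFP- cells.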

How the results depend on the processing

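With 1 sample per gate and 1 gate per plate, the values compare these plates only. Levels under 100 CPM, where many of the named genes lie, varied about as much between the 2 GFP+ plates as between gates. No paired analysis was possible because the replicate numbers only name wells and each gate is 1 sample. Of 11275 measured genes, the shares past 2-fold (higher on both plates, lower on both, KM3 against KM2, KM4 against KM2, KM3 against KM4) were 3.94%, 4.48%, 21.5%, 19.4% and 19.9%, and 86 and 86 genes were shared with the lymph node in the higher and lower direction. With a pseudocount of 5 CPM they were 1.56%, 1.92%, 11.8%, 10.2% and 10.4%, and 35 and 38 genes. With at least 10 CPM and 20% of cells asked for, which left 6596 genes, they were 2.32%, 2.17%, 12.8%, 10.8% and 10.2%, and 30 and 25 genes. Without a filter beyond 1 read, 1044 of 22127 genes were lower on both (4.72%) and 18.2%, 17.1% and 17.4% past 2-fold in the 3 pairs. In cells with 2500 to 4500 genes (60, 52 and 47 cells), chosen after seeing the data, 6.55% of 11580 genes were lower on both, 28.6% past 2-fold in KM4 against KM2 and 29.3% between the GFP+ plates. Asking for KM3 alone gave 8.27% higher and 13.2% lower, and KM4 alone 8.38% and 11%. All other counts of genes stayed within 1.5 times, among them those with cells low in pan-endothelial genes left out (451 higher, 493 lower), also chosen after seeing the data. The lymphatic median for KM3 against KM2 turned to 0.89 with the stricter gene filter and 0.29 without one. The KM4 ratio of Ackr1 turned to 0.15 with a mean over cells and 0.0569 when thinned. In cells with 2500 to 4500 genes the KM3 ratios of Coro1a and Mcm5 turned to 0.0286 and 0.41, and the KM4 ratio of Robo1 to -0.0235. The cause was not tested. Of 3576 ratios of single genes under other settings, these 5 went from past 2-fold to the other sign. Another 37, of 24 genes, changed sign from under 2-fold, among them Chd8, Neat1, Kcnq1ot1 and Manf. Of the 949 genes past 2-fold on both plates, only 62 were followed singly. They were named genes, examples from the lists or genes with a mean of at least 100 CPM. Of these 62, 21 were short of 2-fold on at least 1 plate under at least 1 setting: Bub1, Cd300lg, Cebpd, Csf1r, Flt4, Gpihbp1, Ier3, Lars2, Lyve1, Malat1, Maml1, Mki67, Nabp2, Ocln, Olfml2a, Robo1, Tgfb2, Tgfbi, Thbs1, Vegfc and Zeb1.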

Other observations

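Hist1h2ap and Thbs1 passed the 2-fold limit at over 100 CPM from few cells. Hist1h2ap, a histone gene of the S phase, was at 95.1, 230.3 and 347.9 CPM on KM2, KM3 and KM4, with 56.9%, 36.1% and 15.7% of its reads in 1 cell of each plate. Thbs1, which encodes the matrix protein thrombospondin 1, was at 63.9, 159.3 and 170.7 CPM with reads in 12, 17 and 17 cells. Ramp3, a subunit gene of the adrenomedullin receptor, was at 56.6, 211.6 and 125.5 CPM with reads in 22, 43 and 39 cells, and Olfml2a, a matrix protein gene, at 63, 207.3 and 131.8 CPM in 27, 47 and 40 cells. Among the lower genes, Scgb3a1, a secretoglobin gene, was at 257.7, 60.96 and 68.02 CPM in 44, 18 and 26 cells, Tgfbi at 162.4, 64.2 and 78.3 CPM in 33, 20 and 18 cells, and Ier3, an early response gene, at 171.2, 73.9 and 80.2 CPM in 43, 19 and 36 cells. Cebpd, an acute phase factor gene, was at 173.6, 80.9 and 85.7 CPM in 56, 35 and 40 cells. In 1 cell of KM2 none of the 12 pan-endothelial genes had a read.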
